A study of Mus musculus with 13 samples.

Results

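The genes described here encode proteins of neutrophil granules and the calgranulin alarmins. They are the rows of the deposited expression table with the symbols Mpo, Elane, Ctsg and Prtn3, which are primary granule genes, and Ltf, Camp, Ngp, Lcn2, S100a8 and S100a9, which are switched on later in neutrophil maturation. All 10 were found, out of 21073 genes in the table, and their levels were followed across all 13 mRNA sequencing libraries of the study.

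Neutrophil precursors fill their granules in order. Promyelocytes make the primary (azurophil) granule proteins, among them myeloperoxidase and the serine proteases, while myelocytes and metamyelocytes switch to the specific granule proteins. The calgranulins S100A8 and S100A9 come late, are kept in the cytosol, and act as alarmins when released. Monocyte precursors also transcribe primary granule genes, and circulating monocytes carry calgranulin transcripts, so none of these genes marks neutrophils alone.

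The mice had a C57BL/6J background and were immunized with the myelin peptide MOG35-55 in complete Freund's adjuvant, which induces experimental autoimmune encephalomyelitis (EAE). DKI mice are double knock-in animals in which STAT5A and STAT5B can form dimers but not tetramers, and WT mice are their wild-type counterparts. Spinal cord (SC) monocyte-derived antigen-presenting cells (APCs), SC monocytes and bone marrow (BM) monocytes were sorted on day 14 from DKI mice that had also received pertussis toxin, with 1 library of each and no WT counterpart. The Th17 groups were CD4+ T cells sorted after spleen and lymph node cells, taken on day 14, had been expanded for 3 days with the peptide under Th17 conditions. They were DKI cells expanded with CCL17 (n = 3), DKI cells expanded without it (n = 3), DKI cells of a further set with no statement on CCL17 (n = 2) and WT cells of that set (n = 2). CCL17 is a chemokine that binds CCR4. The study's design text says that the mice giving Th17 cells had no pertussis toxin, whereas a protocol shared by all samples lists it. The labels do not say whether replicates came from separate animals or cultures, so the p-values below measure the spread between these libraries, which may be technical.

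Several of the members lie close together in the mouse genome (build GRCm38.p6). Prtn3 (Entrez 19152, chr10:79879667-79883174) ends 3.14 kb before Elane (Entrez 50701, chr10:79886312-79888216). S100a8 (Entrez 20201, chr3:90669071-90670034) and S100a9 (Entrez 20202, chr3:90692630-90695721) are 22.6 kb apart. Camp (Entrez 12796, chr9:109847377-109849456), Ngp (Entrez 18054, chr9:110419808-110423012) and Ltf (Entrez 17002, chr9:111019292-111042766) follow each other on chromosome 9 at distances of 570 kb and 596 kb. Mpo (Entrez 17523, chr11:87793784-87804412), Ctsg (Entrez 13035, chr14:56099885-56102574) and Lcn2 (Entrez 16819, chr2:32384637-32387739) stand alone.

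PU.1 and the C/EBP factors are the best-known regulators of granule genes, so the 250 bases before each RefSeq start were searched on both strands for the PU.1 letters GAGGAA and the C/EBP letters TTGCNNAA. The promoters of the 4 primary granule genes are shown with those of Ltf and Ngp, the later genes that parted from them most in the spinal cord. They are written 5′ to 3′ in the direction of transcription, from RefSeq (GRCm38.p6), and capitals mark the matches.
Mpo (chr11:87793534-87793783, plus strand): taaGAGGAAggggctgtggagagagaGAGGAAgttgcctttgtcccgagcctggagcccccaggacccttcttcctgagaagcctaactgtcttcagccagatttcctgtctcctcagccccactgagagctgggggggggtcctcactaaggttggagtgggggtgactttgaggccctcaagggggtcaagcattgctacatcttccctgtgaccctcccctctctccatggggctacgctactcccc
Elane (chr10:79886062-79886311, plus strand): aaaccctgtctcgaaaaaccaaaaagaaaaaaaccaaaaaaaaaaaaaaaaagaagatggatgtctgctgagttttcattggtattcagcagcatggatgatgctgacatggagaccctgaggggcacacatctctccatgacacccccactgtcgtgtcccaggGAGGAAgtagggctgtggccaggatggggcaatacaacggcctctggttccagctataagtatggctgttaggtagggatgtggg
Ctsg (chr14:56102575-56102824, minus strand): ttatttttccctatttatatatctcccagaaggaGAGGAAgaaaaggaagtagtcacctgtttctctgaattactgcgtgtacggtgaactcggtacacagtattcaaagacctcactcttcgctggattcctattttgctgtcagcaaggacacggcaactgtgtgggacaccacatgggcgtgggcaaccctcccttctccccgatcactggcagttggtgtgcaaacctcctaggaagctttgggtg
Prtn3 (chr10:79879417-79879666, plus strand): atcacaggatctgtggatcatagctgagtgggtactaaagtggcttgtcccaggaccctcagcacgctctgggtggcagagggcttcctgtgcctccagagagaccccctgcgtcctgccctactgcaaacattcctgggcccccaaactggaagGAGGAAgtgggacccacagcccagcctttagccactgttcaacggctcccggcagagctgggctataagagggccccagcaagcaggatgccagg
Ltf (chr9:111019042-111019291, plus strand): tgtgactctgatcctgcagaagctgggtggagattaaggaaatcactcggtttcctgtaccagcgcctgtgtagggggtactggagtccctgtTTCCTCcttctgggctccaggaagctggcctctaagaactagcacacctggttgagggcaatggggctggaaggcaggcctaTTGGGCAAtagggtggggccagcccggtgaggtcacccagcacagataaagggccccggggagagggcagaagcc
Ngp (chr9:110419558-110419807, plus strand): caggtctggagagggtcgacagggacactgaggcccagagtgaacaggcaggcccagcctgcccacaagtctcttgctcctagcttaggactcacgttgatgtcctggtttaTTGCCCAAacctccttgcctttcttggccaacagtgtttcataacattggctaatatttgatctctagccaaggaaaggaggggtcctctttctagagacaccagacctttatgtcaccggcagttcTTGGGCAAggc

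The PU.1 letters were present in 4 of 4 primary granule promoters and in 3 of 6 later ones, and 23.3% of 32851 mouse promoter windows of the same length hold them. The C/EBP letters were found in 0 of 4 primary granule promoters and in 4 of 6 later ones (Ltf, Ngp, Lcn2 and S100a9), against 9.56% of all windows. In Elane and Prtn3 the PU.1 letters begin 85 and 95 bases before the start. A further motif of granule genes, the RUNX letters TGTGGT, occurred in Ctsg and S100a9 (14.0% of all windows, both strands), and the TATA letters TATAAA, searched in the direction of transcription, in S100a8 (7.59%). These are matches of letters in short windows and say nothing of binding.

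Levels below are the deposited values, log2(RPKM + 1), or the RPKM (a read count per gene, corrected for the length of the gene and for library depth) they stand for. Estimated depth ranged from 12500000 to 20100000 assigned reads in the Th17 libraries and from 24300000 to 31900000 in the myeloid libraries. Marker genes of other cell types were present beside those of the labels. In the 6 Th17 libraries of the CCL17 experiment myeloid markers summed to 1109 to 1870 RPKM and T cell markers to 1942 to 2220 RPKM. T cell markers summed to 27.5 RPKM in SC APCs and 25.4 RPKM in SC monocytes. The genes named next were high where the labels place them. The T cell genes Cd3e, Cd4 and Trac lay between 7.85 and 9.52 log2(RPKM + 1) in the 10 Th17 libraries, and the monocyte genes Ly6c2 and Csf1r between 7.88 and 10.69 in the 3 myeloid ones. Ly6g, the defining surface gene of neutrophils, was low in all of them, with 1.59 in SC APCs, 0.63 in SC monocytes and 1.79 in BM monocytes. It is 1 of 16 mature neutrophil genes listed, which were not all low. In each of these libraries 11 of the 16 reached RPKM 1, and Csf3r lay between 5.87 and 6.21.

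Across the 13 libraries, each of the 10 members was highest in BM monocytes. S100a8 reached 11.65 log2(RPKM + 1) there, and Prtn3, the highest of the primary granule genes, 8.30. The DKI and WT Th17 cells of the smaller set had the lowest levels, from 0 to 3.38 over the 10 genes, except that Ctsg was as low in SC APCs. Th17 cells expanded with CCL17 and without it lay in between, and their ranges overlapped for every member, whereas 5.2% of 11297 genes were higher with CCL17 without overlap and 4.28% were lower.

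S100a9, a subunit of calprotectin, illustrates the order. It stood at 8.53 log2(RPKM + 1) in SC APCs, 7.84 in SC monocytes and 11.11 in BM monocytes. In Th17 cells it averaged 7.69 ± 0.80 with CCL17 and 7.58 ± 0.48 without (SD, n = 3 each), and 1.80 ± 0.53 in DKI and 2.72 ± 0.94 in WT cells (SD, n = 2 each). SC monocytes fell inside the range of the cultures with CCL17 (7.15 to 8.62), so those neighbours did not differ beyond the spread. Ctsg, the gene of cathepsin G, followed another order, with 2.62 ± 0.63 log2(RPKM + 1) in Th17 cells with CCL17 and 2.51 ± 0.56 without, against 0.06 in SC APCs, 0.77 in SC monocytes and 6.08 in BM monocytes. All 6 of these Th17 libraries (2.08 to 3.32) were above both spinal cord libraries for Ctsg.

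**Figure D1:**
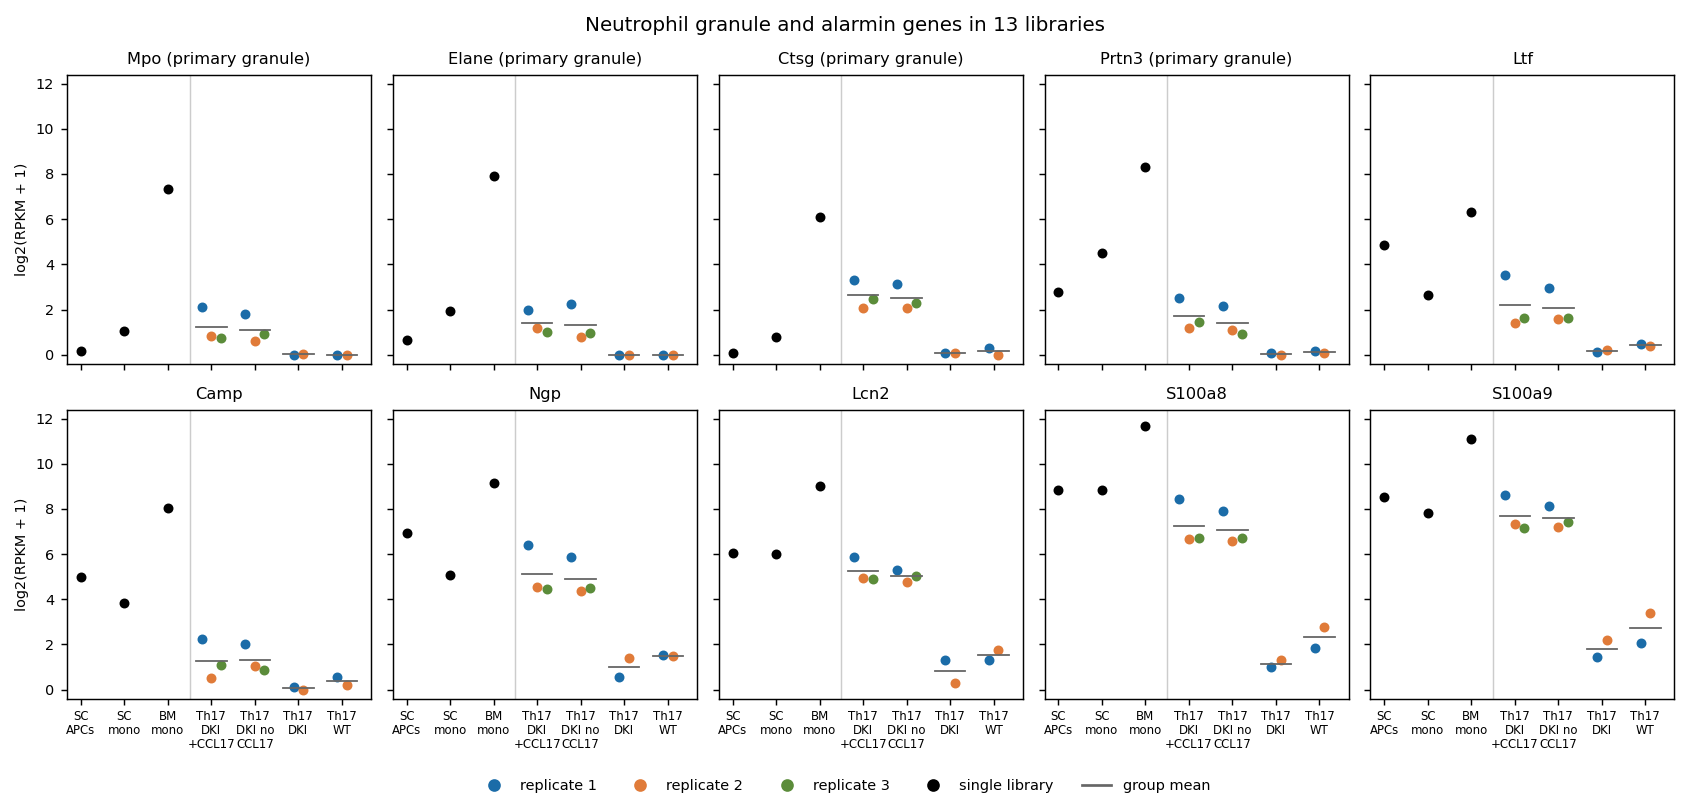
Level of each member, log2(RPKM + 1), in each of the 13 libraries (points), grouped along the horizontal axis, with the group mean as a line where a group has replicates. BM monocytes stand highest in all 10 panels, and DKI and WT Th17 cells lie at 0.28 or below for the 4 primary granule genes.

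The comparison of SC monocytes with BM monocytes asks how monocytes in the inflamed cord differ from those still in the marrow, in DKI mice. All 10 members were lower in SC monocytes by more than 4-fold, and Mpo, Elane and Ctsg dropped furthest. Over 8182 genes that reached RPKM 5 in SC or BM monocytes, 5.13% were 4-fold lower and 6.23% were 4-fold higher (11.4% in all), and the median gene differed by -0.37 on the log2 scale. Mpo, Elane and Ctsg were under RPKM 5 in SC monocytes and reached it through BM monocytes alone, so any of them had to lie lower in SC monocytes to be compared. The other 7 members reached it in both libraries. The same limit holds for each list gene below that reached RPKM 5 in only 1 of these libraries. With 1 library a group there is no test, and the 95% intervals given with the folds are exact binomial intervals on estimated reads that cover counting error only. In bulk libraries, fewer cells of a type and less RNA per cell cannot be told apart.

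Mpo encodes myeloperoxidase, which makes hypochlorous acid in the primary granule. It had 1.07 RPKM in SC monocytes and 160.2 RPKM in BM monocytes, 150-fold lower in the cord (interval 121 to 192). Elane, the neutrophil elastase gene, had 2.87 RPKM in SC monocytes against 238.9 RPKM in BM monocytes, an 83.2-fold difference (65.9 to 105). Ctsg had 0.705 RPKM, an estimated 19 reads, in SC monocytes and 66.5 RPKM in BM monocytes, 94.3-fold lower (59.2 to 154). Prtn3 encodes proteinase 3, the target of antibodies in some human vasculitides, and did not follow its neighbour Elane. It had 21.9 RPKM in SC monocytes against 315.0 RPKM in BM monocytes, 14.4-fold lower (13.2 to 15.6), and its interval lay below those of the other 3 genes. The Prtn3 to Elane ratio was accordingly 7.64 in SC monocytes and 1.32 in BM monocytes.

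The later genes were lower in SC monocytes too, by 7.11-fold to 20.1-fold. Ltf, the gene of the iron-binding protein lactoferrin, had 5.21 RPKM in SC monocytes and 79.4 RPKM in BM monocytes (15.3-fold lower, 13.8 to 17.0). Camp, which encodes the antimicrobial cathelicidin, had 13.2 RPKM against 264.5 RPKM (20.1-fold lower, 17.8 to 22.9). Ngp encodes a cathelin-related neutrophil granule protein. Its 32.4 RPKM in SC monocytes stood against 557.5 RPKM in BM monocytes (17.2-fold lower, 16.2 to 18.4). The intervals of Camp and Ngp lay above that of Prtn3, and that of Ltf overlapped it.

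Lcn2 encodes lipocalin-2, which binds the siderophores of bacteria. It had 64.0 RPKM in SC monocytes against 519.1 RPKM in BM monocytes, 8.11-fold lower (7.70 to 8.56). S100a8 had 452.5 RPKM in SC monocytes and 3219 RPKM in BM monocytes, 7.11-fold lower (6.92 to 7.31), and S100a9 had 228.1 RPKM against 2202 RPKM, 9.66-fold lower (9.31 to 10.02). Lcn2 and the alarmins thus showed the smallest differences of the members while remaining the most abundant of them in SC monocytes. On the log2(RPKM + 1) scale the median difference was -5.63 for the primary granule genes and -3.48 for the later ones.

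**Figure D2:**
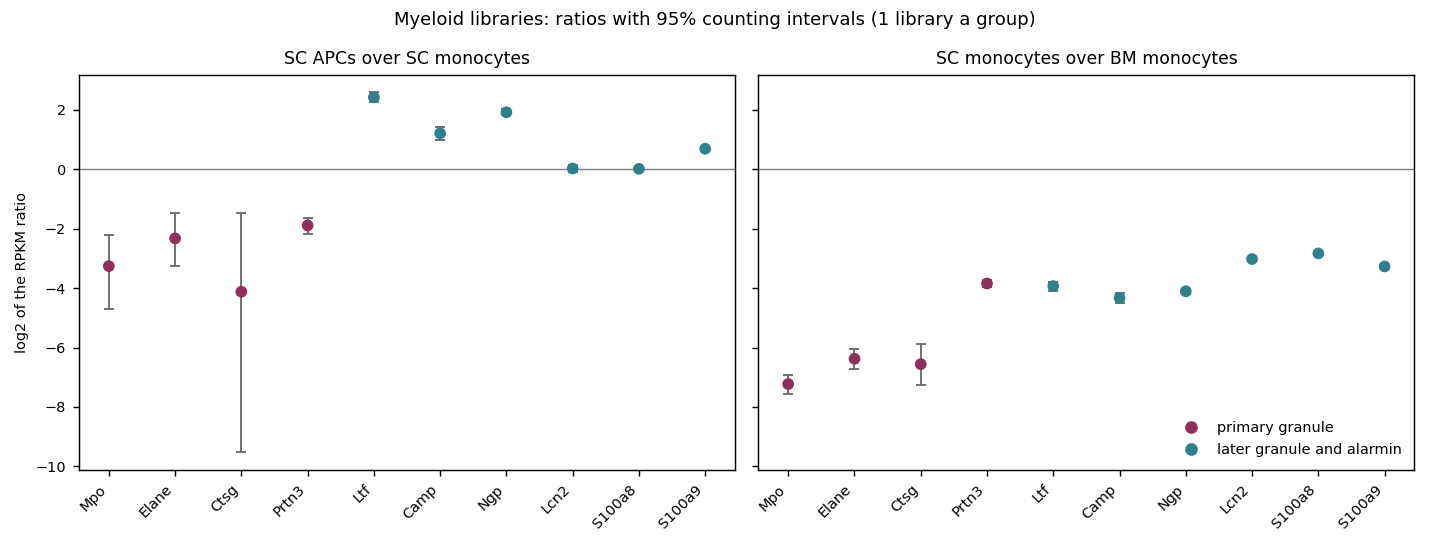
log2 of the RPKM ratio of each member (points) with its 95% counting interval (bars), for SC APCs over SC monocytes on the left and SC monocytes over BM monocytes on the right, 1 library a group. All 10 members lie below 0 in the right panel, whereas in the left panel the 4 primary granule genes lie below 0 and the 6 later ones at or above it.

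Other genes listed with these granules did not share one direction. The primary granule list also holds genes of the processing of these granules, so not all of them encode granule proteins. Of 10 of its genes that reached RPKM 5, 2 were 4-fold lower in SC monocytes and 2 were 4-fold higher, with a median log2 difference of -0.33. Ms4a3, a gene of granulocyte and monocyte precursors, had 0.625 RPKM in SC monocytes and 32.6 RPKM in BM monocytes, and Serpinb1a, an inhibitor of elastase, cathepsin G and proteinase 3, 1.69 RPKM against 46.4 RPKM. Srgn, whose proteoglycan serglycin packs proteases into granules, went the other way with 2100 RPKM in SC monocytes and 245.7 RPKM in BM monocytes. Among 11 further specific and gelatinase granule genes, 3 were 4-fold lower (Pglyrp1, Cd177 and Mmp8) and 2 were 4-fold higher (Arg1 and Adam8), with a median of -0.69.

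Beyond the alarmins, 7 other genes of the S100 list were compared and none differed by 4-fold, with S100a4 at -1.64 on the log2 scale as the furthest. Cell cycle genes were lower alongside the members, 11 of 12 by 4-fold with a median of -4.02, and their summed level was 102.5 RPKM in SC monocytes and 865 RPKM in BM monocytes. Of these 12 genes only Mki67 and Pcna reached RPKM 5 in SC monocytes, so the others had to lie lower there to be compared. Of 11 regulators of granulocyte and monocyte precursors compared, 2 were 4-fold lower and 2 were 4-fold higher, 7 had positive differences, and the median was 0.45. The 2 lower ones were Cebpe, with 1.92 RPKM in SC monocytes against 17.8 RPKM in BM monocytes, and Myb, with 0.158 RPKM against 7.88 RPKM. The 2 higher ones were Cebpb, with 716 RPKM in SC monocytes and 144.2 RPKM in BM monocytes, and Cd34, with 8.70 RPKM against 1.21 RPKM. Markers of other cell types differed between the libraries as well. Microglia markers summed to 497 RPKM in SC monocytes and 149.9 RPKM in BM monocytes, T cell markers to 25.4 RPKM and 0.146 RPKM, and mature neutrophil genes to 439.6 RPKM and 274.8 RPKM. The mature neutrophil genes did not share one direction. Of 9 compared, 7 were higher in SC monocytes and 2 were 4-fold lower (Padi4 and Wfdc21). The part of these other cell types in the differences of the members was not tested.

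Within the spinal cord, APCs were compared with monocytes to see which genes part the monocyte-derived cells from the monocytes. The members split by granule class: the 4 primary granule genes were lower in APCs, and Ltf, Ngp, Camp and S100a9 were higher, each with a counting interval that leaves out equal levels. Of 7 other genes of primary granules and their processing that reached RPKM 5, 5 were higher in APCs and 2 lower. Their median log2 difference was 0.57. Only Ltf differed by 4-fold among the 7 members that reached RPKM 5, while 0.24% of 7499 genes were 4-fold higher in APCs and 0.08% were 4-fold lower (0.32% in all).

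Ltf had 27.9 RPKM in APCs and 5.21 RPKM in SC monocytes, 5.36-fold higher (4.80 to 6.00). Ngp had 122.4 RPKM against 32.4 RPKM, 3.78-fold higher (3.53 to 4.06), and Camp 30.5 RPKM against 13.2 RPKM, 2.32-fold higher (2.00 to 2.70). These are the 3 specific granule genes that lie on chromosome 9. For S100a9 the values were 368.6 RPKM in APCs and 228.1 RPKM in SC monocytes, a ratio of 1.62 (1.54 to 1.69). S100a8 and Lcn2 had ratios of 1.01 (0.973 to 1.05) and 1.02 (0.948 to 1.10), with intervals that include no difference.

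Among the primary granule genes, Prtn3 was the one with enough reads for a narrow interval, at 5.92 RPKM in APCs and 21.9 RPKM in SC monocytes (3.70-fold lower, 3.10 to 4.48). Elane had an estimated 14 reads in APCs and 75 in SC monocytes, 5.01-fold lower per RPKM (2.76 to 9.45). Mpo had 7 reads against 77 (9.57-fold lower, 4.69 to 26.0), and Ctsg 1 read against 19 (17.4-fold lower, 2.78 to 727). All 4 intervals lay on the lower side, though the last is wide. On the log2(RPKM + 1) scale the medians were -1.10 for the primary granule genes and 0.92 for the later ones, against 0.03 for the median gene.

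Few genes moved with the specific granule genes in APCs. Of 13 other specific and gelatinase granule genes none differed by 4-fold, and their median was -0.04. Retnlg, a resistin-like gene of mature neutrophils, had 35.3 RPKM in APCs and 8.08 RPKM in SC monocytes, and Ly6g had 2.00 RPKM against 0.551 RPKM. The 16 mature neutrophil genes together summed to 385.6 RPKM in APCs and 439.6 RPKM in SC monocytes. Fpr2 was the largest part of each sum, at 6.85 log2(RPKM + 1) in APCs and 7.44 in SC monocytes. The sums therefore say little of lower genes such as Retnlg and Ly6g. Of 8 mature neutrophil genes that reached RPKM 5, 3 were higher in APCs and 5 lower. Microglia markers were higher in APCs in 10 of 10 cases, none by 4-fold, and summed to 1236 RPKM against 497 RPKM. The part of neutrophil or microglial RNA in the APC values was not tested.

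The balance of the classes therefore differed between the libraries. Summed RPKM of the later genes was 161 times that of the primary granule genes in APCs, 29.9 times in SC monocytes and 8.76 times in BM monocytes. Primary granule genes gave 0.616% of the summed RPKM of the members in APCs, 3.23% in SC monocytes and 10.2% in BM monocytes. In the 6 Th17 libraries of the CCL17 experiment the later to primary ratio was 37.6 to 47.8 with CCL17 and 35.5 to 52.0 without. DKI and WT Th17 cells held at most 0.331 RPKM of the 4 primary granule genes together, too few reads for a ratio.

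**Figure D3:**
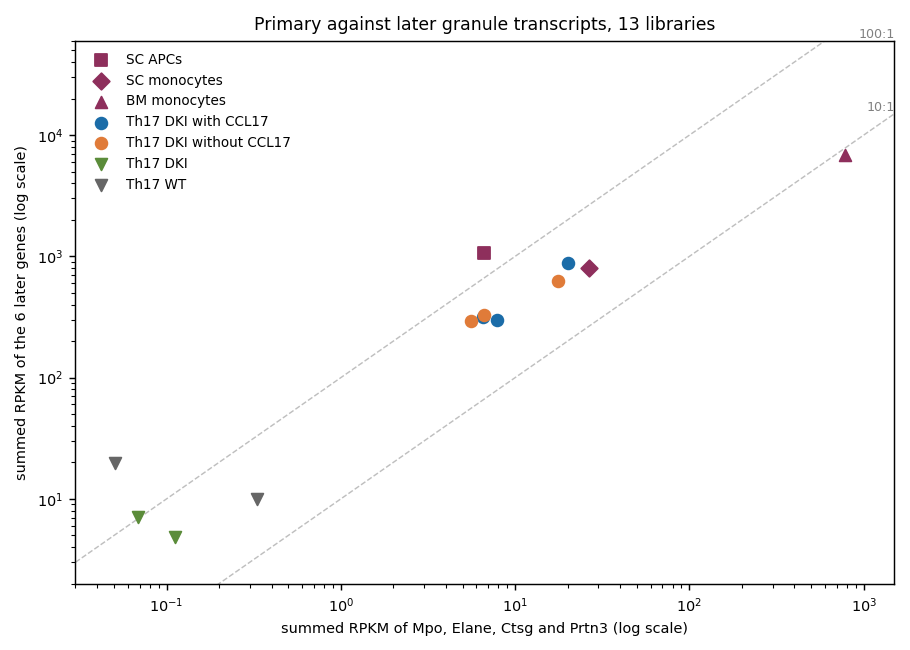
Summed RPKM of the 6 later genes (vertical) against summed RPKM of Mpo, Elane, Ctsg and Prtn3 (horizontal), both on log scales, with 1 point per library and dashed lines at ratios of 10 and 100 to 1. SC APCs lie above the upper line with a ratio of 161, BM monocytes below the lower one with 8.76, and the Th17 cultures of the CCL17 experiment between the lines.

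Ratios between members were compared for 8 chosen pairs between the 6 Th17 libraries of the CCL17 experiment and the 3 myeloid libraries. Other pairs were not compared, so the counts with and without overlap hold for these pairs only. For 4 pairs the ranges overlapped (Prtn3 to Elane, Prtn3 to Mpo, Ngp to Lcn2 and Ltf to Lcn2), and for the other 4 they did not. Ctsg was 2.14 to 4.66 times Elane over the 6 Th17 libraries and 0.0708 to 0.278 times in the myeloid ones. Per RPKM, Ctsg was 2.73 to 6.99 times Mpo with CCL17 and 3.18 to 6.35 times without, whereas it was 0.363 times Mpo in SC APCs, 0.661 times in SC monocytes and 0.415 times in BM monocytes. S100a8 was 0.635 to 0.873 times S100a9 in cultures with CCL17 and 0.607 to 0.858 times without, against 1.24 in SC APCs, 1.98 in SC monocytes and 1.46 in BM monocytes. Camp was 0.0191 to 0.0544 times Ngp with CCL17 and 0.0389 to 0.0550 times without, against 0.249, 0.407 and 0.474 in the myeloid libraries in the same order. The alarmins S100a8 and S100a9 made up 79.8% to 81.0% of the summed RPKM of the members with CCL17 and 80.7% to 81.6% without.

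The largest differences among Th17 libraries lay between sets. DKI cells expanded without CCL17 belong to the CCL17 experiment, and DKI cells of the smaller set carry no statement on CCL17. The labels give no other difference between them. They share the genotype, and the effects of whatever separated the sets cannot be told apart. All 10 members were higher in the cultures without CCL17 than in DKI cells, with no overlap between the groups, where 26% of 11507 genes tested lay higher without overlap and 29.6% lay lower. The test took genes at RPKM 1 in at least 2 of the 5 libraries. Mpo and Elane missed this minimum, since 1 culture without CCL17 and no DKI library reached it. The shares given thus leave out Mpo and Elane. Of the 8 members that passed, S100a9 was the only one that passed on its DKI libraries. The other 7 needed the cultures without CCL17, so their place among the genes tested already required a high value there. A count of their calls, or of members without overlap, is therefore no support. limma called S100a9, S100a8, Lcn2, Ngp, Ctsg, Ltf and Prtn3 higher and did not call Camp, where 33.2% of the genes tested were called, 15.4% higher and 17.8% lower, and 44.3% had an unadjusted p under 0.05. With no minimum all 10 members were tested and 5 were called, all higher (S100a8, S100a9, Lcn2, Ngp and Ctsg), while 23.1% of 17151 genes were called, 11% higher and 12% lower.

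S100a8 had 7.90, 6.57 and 6.70 log2(RPKM + 1) in DKI cells without CCL17, against 0.99 and 1.32 in DKI cells. It was 5.90 higher on the log2 scale (SE 0.59, limma adjusted p = 0.000344). S100a9 had 8.12, 7.22 and 7.41 against 1.43 and 2.18, a difference of 5.78 (SE 0.54, adjusted p = 0.000244). As mean RPKM the alarmins stood at 145.0 and 198.4 without CCL17 and at 1.24 and 2.61 in DKI cells. Both alarmins were thus higher in every culture without CCL17 by a margin well beyond the spread of either group.

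Lcn2 had 5.31, 4.76 and 5.04 log2(RPKM + 1) without CCL17 and 1.31 and 0.30 in DKI cells, a difference of 4.23 (SE 0.37, adjusted p = 0.000186). Ngp had 5.87, 4.38 and 4.49 against 0.56 and 1.41, a difference of 3.93 (SE 0.64, adjusted p = 0.00268). Among primary granule genes, Ctsg had 3.15, 2.09 and 2.30 against 0.08 and 0.07, which was 2.44 higher (SE 0.39, adjusted p = 0.00247). The call for Ctsg compares an estimated 1 read in each DKI library with levels that exceed those of SC monocytes.

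Ltf and Prtn3 passed the threshold narrowly. Ltf had 2.96, 1.57 and 1.61 log2(RPKM + 1) without CCL17 against 0.14 and 0.19 in DKI cells (1.88 higher, SE 0.62, adjusted p = 0.0472). Prtn3 had 2.17, 1.08 and 0.91 against 0.08 and 0 (1.35 higher, SE 0.44, adjusted p = 0.0463). Both limma calls were lost with no minimum (adjusted p = 0.0721 for Ltf and 0.0669 for Prtn3) and when medians were centred (adjusted p = 0.0533 for Ltf and 0.0556 for Prtn3). Quantile normalization lost both too (adjusted p = 0.152 for Ltf and 0.296 for Prtn3). The Prtn3 call was lost with only both groups' libraries (adjusted p = 0.0664). Leaving out either DKI library gave differences of 1.85 and 1.91 for Ltf and 1.39 and 1.31 for Prtn3. The Ltf call was also lost without any single culture of the other group. Prtn3 missed the minimum without culture 1 or 2 of that group and kept its call without culture 3. Camp had 2.04, 1.06 and 0.87 against 0.13 and 0 (1.26 higher, SE 0.49, adjusted p = 0.0809). Elane was at 2.23, 0.77 and 0.95 without CCL17 and had no reads in either DKI library, which makes its mean RPKM at least 11.0-fold higher over a floor of 3 reads per library. Mpo had 1.80, 0.60 and 0.90 without CCL17 and 1 read in the DKI libraries together.

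**Figure D4:**
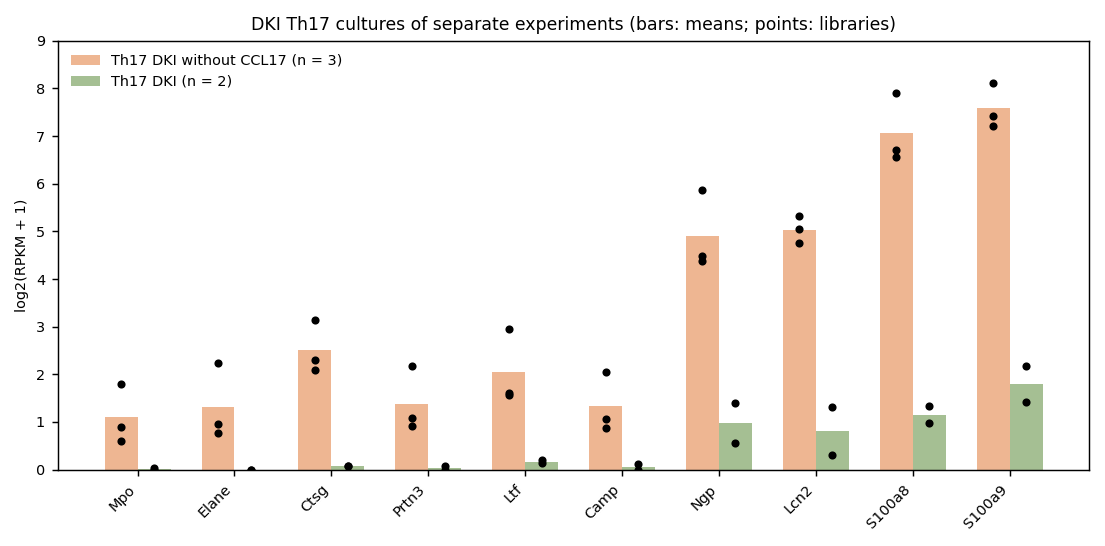
Mean log2(RPKM + 1) of each member (bars) with single libraries (points) in DKI Th17 cells without CCL17 (n = 3) beside DKI Th17 cells of the smaller set (n = 2). Every point of the first group lies above both points of the second, with the largest mean differences for S100a8 (5.90) and S100a9 (5.78).

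Genes of several other cell types were higher in the same cultures. Of 12 myeloid markers tested, 11 were called higher and none lower, with a median difference of 3.75, and their summed level was 1199 to 1870 RPKM without CCL17 and 177.9 to 272.2 RPKM in DKI cells. Lyz2, the lysozyme gene of myeloid cells, was 5.91 higher (SE 0.38, adjusted p = 4.6e-05). Eosinophil, basophil and mast cell markers were called higher in 7 of 8 cases, with sums of 36.0 to 68.5 RPKM against 1.75 to 3.44 RPKM, and B lineage markers in 6 of 7 cases, with sums of 64.5 to 97.3 RPKM against 9.45 to 17.4 RPKM. Of 8 T cell markers, 5 were called lower and none higher, with a median of -0.36. Prg2, Retnlg and Stfa1 had no reads in either DKI library. Of the genes tested, 3 of the 12 myeloid, 8 of the 8 eosinophil, basophil and mast cell, and 4 of the 7 B lineage markers passed the minimum only with the cultures without CCL17. The part of these other cells in the member values was not tested.

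Other granule genes were called higher in the same cultures. Among 12 other specific and gelatinase granule genes, 9 were called higher and none lower, and the collagenase gene Mmp8 was 5.69 higher (SE 0.26, adjusted p = 8.99e-06). For other genes of primary granules and their processing the count was 7 of 10 higher and none lower, with Ms4a3 at 1.35 (SE 0.33, adjusted p = 0.0141). Among 15 mature neutrophil genes, 12 were called higher, including Csf3r, the receptor of the neutrophil growth factor G-CSF, at 2.38 (SE 0.31, adjusted p = 0.00101), and 1 lower. The minimum was passed only with the cultures without CCL17 by 5 of the specific, 2 of the primary and 12 of the mature neutrophil genes. In the S100 list of 10 tested genes the only higher calls were S100a8 and S100a9, and S100g and S100pbp were called lower. The alarmin receptor gene Tlr4 was 2.79 higher (SE 0.34, adjusted p = 0.000754) and Ager, the gene of the receptor RAGE, was 1.74 lower (log2 difference -1.74, SE 0.24, adjusted p = 0.00128).

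The CCL17 comparison asks what the chemokine does to DKI cells during expansion. Of 9 members tested, limma called 0, all at an adjusted p of 0.999, and 0% of 11297 genes were called, with 411 genes (3.64%) at an unadjusted p under 0.05. With the replicate number as a block, which the pairing of these libraries allows, 2 genes and 0 members were called. In that limma fit 1524 genes and 2 of the 9 members had an unadjusted p under 0.05, and the members' adjusted p ran from 0.281 to 0.936. The SEs that follow come from the fit without the block, so they include the spread between replicate numbers. S100a8 had 8.42, 6.66 and 6.69 log2(RPKM + 1) with CCL17 and 7.90, 6.57 and 6.70 without, a difference of 0.20 (SE 0.57). S100a9 differed by 0.11 (SE 0.43), Ngp by 0.23 (SE 0.63) and Lcn2 by 0.21 (SE 0.28). The primary granule gene Prtn3 had 2.51, 1.20 and 1.44 with CCL17 against 2.17, 1.08 and 0.91 without (0.33, SE 0.45), and it was the only member with a higher value in 3 of 3 pairs (0.35, 0.12 and 0.53). Elane, Ctsg, Ltf and Camp differed by 0.07, 0.11, 0.14 and -0.04, within their standard errors of 0.39 to 0.64. Mpo was not tested and had 2.10, 0.84 and 0.72 with CCL17 against 1.80, 0.60 and 0.90 without.

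Replicate 1 stood above replicates 2 and 3 for each member in both arms. The difference between replicate 1 and the mean of the other two, on the log2(RPKM + 1) scale, was 1.99 with CCL17 and 1.36 without for Ltf, and 1.92 and 1.44 for Ngp. S100a8 showed 1.74 and 1.27, Camp 1.42 and 1.07, and S100a9 1.38 and 0.81. Of the primary granule genes, Mpo showed 1.32 with CCL17 and 1.05 without, Prtn3 1.19 and 1.17, Ctsg 1.04 and 0.96, and Elane 0.93 and 1.37, while Lcn2 showed 0.94 and 0.41. A difference of at least 1 was rare among the 11297 genes, at 0.513% with CCL17 and 0.345% without. Without both replicate 1 libraries, an alternative chosen after seeing the data, limma called 213 genes between the arms and again 0 of the 7 members still tested.

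Genes of other lists parted in replicate 1. Among 11297 genes tested, 28.2% were above both other cultures in both arms and 33.7% below them. All 9 members tested were above, as were 6 of 8 eosinophil, basophil and mast cell markers, with 1 below (Il5ra). So were 10 of 12 cell cycle genes, with 0 below. In the S100 list 8 of 9 tested genes were above, S100a8 and S100a9 included, and 1 was below. Of 15 mature neutrophil genes 9 were above, Retnlg, Cxcr2, Ly6g and Stfa1 among them, and 5 were below (Csf3r, Cxcr1, Il1r2, Fpr1 and Fpr2). Their summed level was lower in replicate 1, with 343.9 RPKM beside 448.8 and 487.9 RPKM with CCL17, and 377.1 RPKM beside 493.2 and 503.4 RPKM without. Most of each sum was Il1r2 alone, at 8.11 log2(RPKM + 1) beside 8.59 and 8.72 with CCL17, and 8.33 beside 8.72 and 8.76 without. Il1r2 also stood at 7.40 to 8.75 in the DKI and WT Th17 cells of the smaller set, so the sum mainly follows that gene. Of 12 other specific and gelatinase granule genes 6 were above and 3 below. Of 10 other genes of primary granules and their processing 3 were above and 5 below. All 12 myeloid markers were below, and of 10 classical monocyte genes 7 were below and 3 above (Ccr2, Fn1 and Plac8). Eosinophil, basophil and mast cell markers summed to 78.2 RPKM in replicate 1 and to 33.6 and 34.2 RPKM in the others with CCL17, and to 68.5 RPKM and 36.0 and 42.1 RPKM without. Myeloid markers summed to less in replicate 1, with 1109 RPKM beside 1484 and 1492 RPKM with CCL17, and 1199 RPKM beside 1833 and 1870 RPKM without. The T cell markers summed to 1942 to 2148 RPKM with CCL17 and 2067 to 2220 RPKM without, highest in replicate 1 in both arms. The part of granulocyte RNA in the member values of replicate 1 was not tested.

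**Figure D5:**
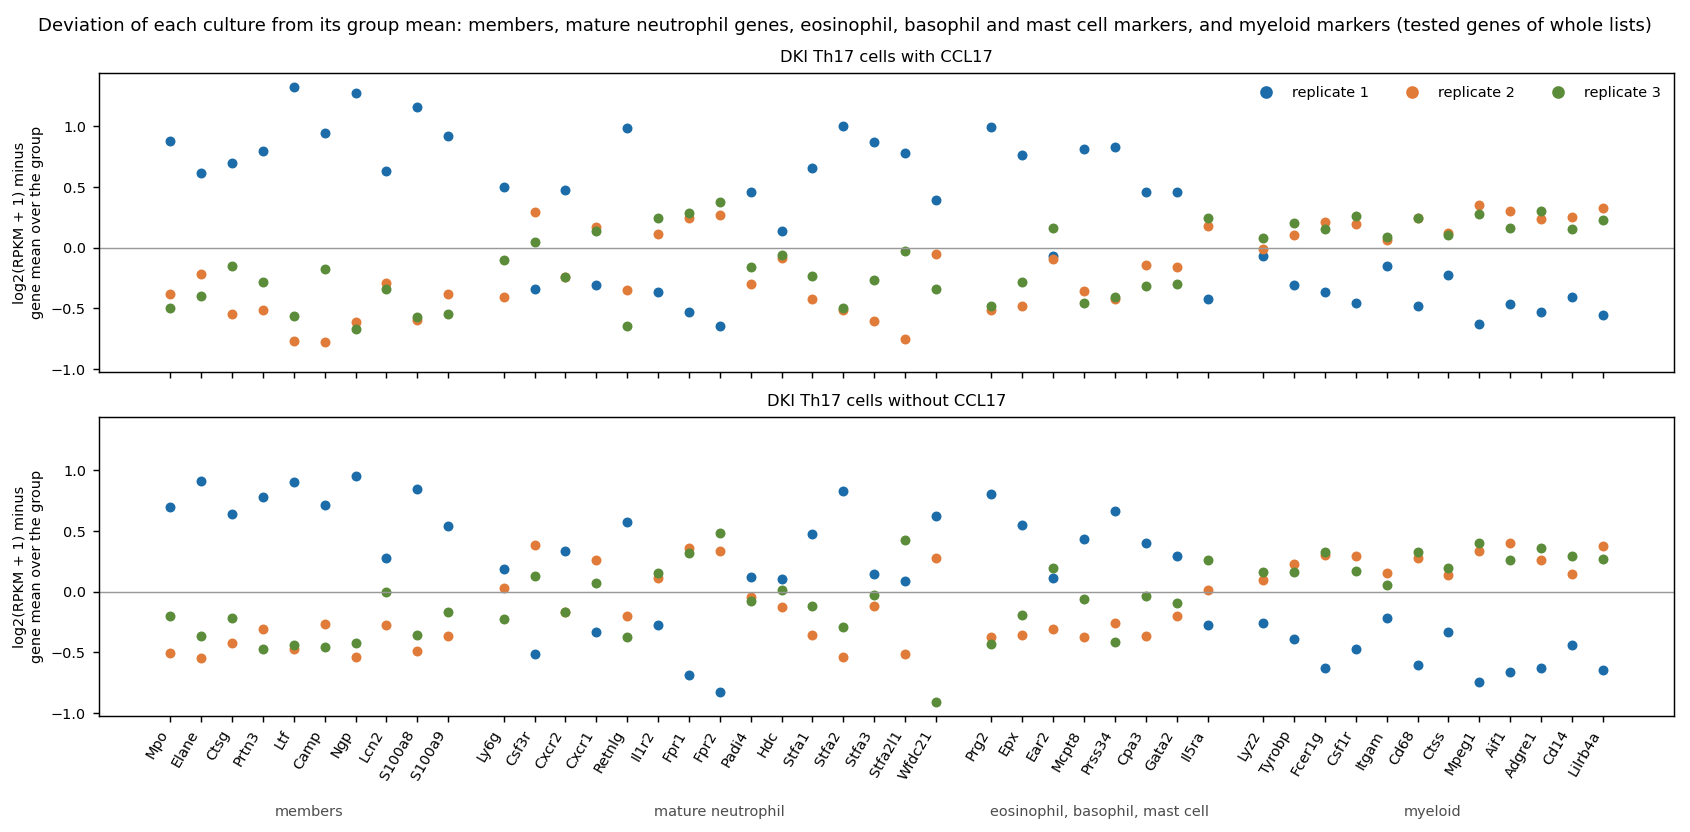
Deviation of each culture from its group mean in log2(RPKM + 1), with CCL17 above and without CCL17 below, for the 10 members and, left to right, the tested genes of 3 whole lists: 15 mature neutrophil genes, 8 eosinophil, basophil and mast cell markers and 12 myeloid markers. Replicate 1 lies above the other cultures for the 10 members, for 9 of the mature neutrophil genes and 6 of the eosinophil, basophil and mast cell markers, and below them for all 12 myeloid markers.

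DKI and WT Th17 cells of the smaller set were compared to ask whether STAT5 tetramers matter for these transcripts in T cell cultures. The levels were low in both genotypes, and limma called 0 of the 4 members tested and 0% of 11078 genes, of which 1879 (17%) had an unadjusted p under 0.05. With the replicate number as a block, although these libraries share only a number, 1281 genes and 2 of the 4 members were called. Those 2 were S100a8 and S100a9, both lower in DKI cells. The count of all genes rested on single libraries, with 580 called without DKI replicate 2, 123 without WT replicate 2 and 4 without DKI replicate 1, none of them members. S100a8 had 0.99 and 1.32 log2(RPKM + 1) in DKI cells and 1.87 and 2.75 in WT cells (-1.15, SE 0.64, adjusted p = 0.381), from an estimated 9 and 15 reads against 23 and 56. S100a9 had 1.43 and 2.18 in DKI cells against 2.05 and 3.38 in WT cells (-0.91, SE 0.58, adjusted p = 0.438). Lcn2 had 1.31 and 0.30 against 1.31 and 1.75 (-0.72, SE 0.40, adjusted p = 0.382), and Ngp 0.56 and 1.41 against 1.49 and 1.53 (-0.53, SE 0.70, adjusted p = 0.716).

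S100a8, Ngp, Ltf and Camp were lower in both DKI libraries than in both WT libraries, and no member was higher in both. Among the genes tested, which leave out Ltf and Camp, 20.1% were lower in both and 19.9% higher. Of the members tested only S100a9 reached RPKM 1 in both DKI libraries. S100a8, Ngp and Lcn2 passed the minimum only with the WT libraries, so their place among the genes tested already favoured lower DKI values. A count of lower members is thus no support. Ltf, with 0.14 and 0.19 in DKI cells against 0.48 and 0.38 in WT cells, and Camp, with 0.13 and 0 against 0.54 and 0.22, were too low to be tested. Primary granule transcripts were near the limit of detection in this set. Elane had no reads in any of the 4 libraries, Mpo had 1 read in 1 DKI library, Prtn3 had 0 to 2 reads and Ctsg 0 to 4 reads per library, so no difference between the genotypes was detectable at this depth. Of 11 myeloid markers tested, 10 had negative differences and 0 were called, with sums of 177.9 and 272.2 RPKM in DKI cells and 415.4 and 247.6 RPKM in WT cells. Their part in these values was not tested.

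The genes whose profile over the 13 libraries was most like that of the members were found from the root mean square (RMS) difference between centred log2(RPKM + 1) profiles, among 11753 genes. Nearest to the mean profile of the 4 primary granule genes were Nfe2 (RMS 0.57), Cd177 (0.70), Ms4a3 (0.71), Padi4 (0.72) and Ear2 (0.77). The members themselves lay at 0.24 for Elane, 0.31 for Mpo, 0.82 for Prtn3 and 0.83 for Ctsg, so those 5 genes were closer to the mean profile than 2 of its own members. Nearest to S100a8 and S100a9 were the chemokine genes Ccl9 (0.81) and Ccl6 (0.89), then Wfdc17 (1.04), C3 (1.23) and Mmp8 (1.23). Mmp8 had 5.33 log2(RPKM + 1) in SC APCs and 5.77 in SC monocytes, lower than the 6.30 to 6.79 of the 6 Th17 libraries of the CCL17 experiment, an order that neither alarmin shared.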

How the data were processed

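The 13 libraries were mRNA sequencing libraries made with the KAPA HyperPrep kit, per the labels' protocols. The submitters' processing notes name Subread, featureCounts and build mm10. Tool versions, strand setting and annotation release are not given in the sources used here. Values as deposited are log2(RPKM + 1), as the authors made them, for 21073 genes, and genes without reads carry 0.0001, which was set to 0. Taken as base 2, RPKM times gene length added up to 1030000 to 1071000 per library (base e, 7810000 to 14740000). SC APCs were matched to the column of monocyte-derived cells, since no other sample or column remained. Symbols came from RefSeq for 20857 identifiers, and 216 had no match.

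Depth was inferred from the spacing of low values. Among 6588 genes with 1 transcript, 72.4% to 76.5% of values up to 5 reads were within 0.1 of a whole number, where evenly spread values would give 20%. Counting intervals (Clopper-Pearson, 95%) and the floor of 3 reads rest on these estimates and cover counting error only.

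Comparisons of Th17 groups used limma 3.58.1 (R 4.3.3), with empirical Bayes moderation and a mean-variance trend, and Benjamini-Hochberg adjustment over all genes tested. Calls were made at an adjusted p under 0.05, on genes at RPKM 1 or more in 2 libraries (3 for CCL17). A single fit of the 10 Th17 libraries gave the genotype contrast and the contrast between the DKI sets, which share the DKI libraries, and CCL17 was tested in its own 6 libraries. Because 1 is added to RPKM, log2 differences understate the change of low genes. The myeloid groups hold 1 library each and were counted at a log2 difference of 2 (4-fold) for genes that reached RPKM 5. In the CCL17 experiment, deviations of libraries with the same replicate number correlated at 0.774, 0.509 and 0.525 across 11297 genes, so the numbers were taken to pair them, although replicates 2 and 3 also correlated across numbers (0.503 and 0.533).

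The members and the gene lists were chosen with earlier results of these data known, and no p-value is adjusted over a list alone. Named genes are the members, the list genes with the largest differences or smallest p in each comparison, and the 5 genes nearest each profile. Cell type markers and the genes of single sentences on cell makeup (Ly6g, Ly6c2, Csf1r, Cd3e, Cd4, Trac, Retnlg, Stfa1, Cebpb, Cd34, Il5ra, Plac8 and S100g among them) were named after their values were seen. Promoter sequences for all 10 members are those of RefSeq (GRCm38.p6). Alternatives were another pseudocount (0.1), no filter, median centring, quantile normalization, other sets of libraries, the replicate block and leaving out each replicate.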

Additional observations from a re-analysis of the deposited data

How the results depend on the processing

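The lower levels of all members in SC monocytes kept their direction under every alternative run, and the medians moved to -5.26 (median centred) and -6.35 (pseudocount 0.1) for the primary granule genes and to -3.11 and -3.59 for the later ones. For SC APCs against SC monocytes the primary median was -2.30 with a pseudocount of 0.1. Between DKI cells without CCL17 and DKI cells 7 members were called. With no filter, median centring or quantile normalization 5 were called, and 6 with only both groups' libraries. With a pseudocount of 0.1 or the replicate block 8 were called, Camp among them, and 5 to 6 when 1 culture without CCL17 was left out. The block here joins libraries of separate sets by replicate number, which the labels do not pair, so its count is no check on the calls. All genes called there numbered 3823, 2513 to 3526 when 1 replicate was left out and 2423 with only both groups' libraries. S100a8, S100a9, Lcn2, Ngp and Ctsg kept their calls under each of these settings.

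For DKI against WT, 23 genes were called with no filter, 7 with quantile normalization, 0 to 580 when 1 replicate was left out and 1281 with the replicate block. The block called 2 members lower in DKI cells, S100a8 (adjusted p = 0.0305) and S100a9 (adjusted p = 0.0438). These libraries share only a number (correlation of deviations 0.455 over 2 pairs), and no other alternative called a member. For CCL17, 2 genes were called with the replicate block and 213 without both replicate 1 libraries (86 higher and 127 lower), and 0 when any 1 replicate was left out. No member was called under any of these. Their directions depended on single cultures: leaving out 1 replicate gave log2 differences of -0.52 to 0.34 for Camp, -0.24 to 0.43 for Ctsg, -0.21 to 0.27 for Elane, -0.10 to 0.38 for Lcn2, -0.52 to 0.60 for Ltf, -0.41 to 0.71 for Ngp, -0.066 to 0.72 for Prtn3, -0.38 to 0.63 for S100a8 and -0.35 to 0.38 for S100a9. Without both replicate 1 libraries Ltf was at -0.066 and S100a9 at -0.083. Dropping DKI replicates leaves 1 library, whose spread is taken to be that of the other groups. Depth limits the primary granule genes in SC APCs and in DKI and WT Th17 cells, where few reads stand behind a value.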

Other observations

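Genes that act on granule proteins or sense alarmins differed between SC and BM monocytes in ways the members did not share. Of 4 serine protease inhibitors compared, 2 were 4-fold higher in SC monocytes and 1 was lower. Serpina3g had 143.3 RPKM in SC monocytes and 4.07 RPKM in BM monocytes, and Slpi, the secretory inhibitor of elastase and cathepsin G, had 145.4 RPKM against 129.9 RPKM. Among 11 alarmin and granule protein receptors, Cd36 (6.21 RPKM in SC monocytes, 0.710 RPKM in BM monocytes) was the only one with a 4-fold difference, and Fpr2, a formyl peptide receptor that also binds cathelicidin, had 172.2 RPKM against 44.1 RPKM. Of 9 other alarmins, 5 were 4-fold higher and 2 lower, with Il1a at 224.5 RPKM in SC monocytes and 0.22 RPKM in BM monocytes and Hmgb2 at 10.8 RPKM against 72.0 RPKM.

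In the Th17 cultures, erythroid markers summed to 111.3 RPKM in replicate 1 with CCL17 and to 7.80 and 7.95 RPKM in the other cultures with CCL17, against 5.80 to 7.92 RPKM without. Cxcr1, a receptor for neutrophil-attracting chemokines, went against the other mature neutrophil genes, with a mean of 4.13 RPKM in DKI cells without CCL17 and 17.4 RPKM in DKI cells (log2 difference -1.70, SE 0.37, limma adjusted p = 0.00965).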
